A study of Columba livia and Gallus gallus with 96 samples.

Results

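The genes described here, looked up in pigeon limb buds, are SOX10, FOXD3, ERBB3, TFAP2B, MITF, EDNRB and KIT. They are known as markers of the neural crest and its descendants, Schwann cells and melanoblasts. Which cells of these buds held their RNA was not tested. The genes were chosen by name, as the features that the authors' deposited table names with one of these symbols. Counts were summed per symbol. Of the 7 listed genes, 5 were present, SOX10, TFAP2B, MITF, EDNRB and KIT, with 9 features between them, out of 14845 distinct gene names or unnamed features. No feature carried the symbol FOXD3 or ERBB3. A feature that the same table describes as receptor tyrosine-protein kinase erbB-3 was found by that description and is reported beside the members, outside the rule.

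The study compared limb buds of pigeon (Columba livia) embryos of 3 foot phenotypes, scale (scaled feet) and grouse and muff (both feather-footed). Forelimb and hindlimb buds were taken as pairs at Hamburger-Hamilton stages HH21 (embryonic day 3.5), HH25 (day 4.5) and HH29 (day 6). This gave 18 groups of 4 libraries, 72 in all, with no treatment and no added allele in any group. The labels give neither breed nor genotype, nor whether replicates came from separate embryos, so p-values measure only the spread between these libraries, which may be technical.

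The neural crest is a transient population of the vertebrate embryo whose cells leave the dorsal neural tube and migrate through the body. In the limb its best known descendants are the Schwann cells that accompany ingrowing nerves and the melanoblasts that reach the skin and feathers. SOX10 is a transcription factor kept in both of these lineages, and MITF is the central transcription factor of melanocytes. KIT and EDNRB are receptors that, in mammals, melanoblasts need for migration and survival. None of these genes is restricted to crest cells: TFAP2B also marks limb mesenchyme and ectoderm, MITF and EDNRB are active in other tissues, and KIT is present in blood progenitors. In bulk samples, fewer cells of a type and less RNA per cell cannot be told apart.

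Each library held between 10438537 and 16378164 counts on genes, with a median of 12915094.5, and between 13466 and 13991 genes were detected. Among 108 pairs of replicates of one group, the lowest chi-square per degree of freedom was 4.08, so no replicate was a copy of another of its group; libraries of different groups were not compared in this way. In the grouse forelimb at HH29 the 3 pairs with replicate 2 gave 49.7 to 56.88 and the other 3 pairs 8.04 to 11.64. Replicates 1 and 2 stood apart from replicates 3 and 4: the shares of genes called between them were 37.3% (HH21), 54.1% (HH25) and 1.73% (HH29). The labels do not say what sets the replicates apart, and they do not say how stages were distributed over sequencing lanes, so stage and library processing cannot be told apart. Levels below are CPM, a gene's counts relative to the library total after scaling by TMM, and a gene was called when its Benjamini-Hochberg adjusted p from edgeR's quasi-likelihood test, over all genes tested, was under 0.05.

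Each of the 5 members was called higher over at least 1 stage interval in each limb. Between HH21 and HH25, 4 of 5 were called higher in the forelimb and 5 of 5 in the hindlimb. Between HH25 and HH29, 4 of 5 were called higher in each limb, and no member was called lower in any of these comparisons. Stage moved much of the transcriptome: 54.1% of genes were called in either direction and 27.1% called higher between HH21 and HH25 in the forelimb, and 54.3% and 27.4% in the hindlimb. Between HH25 and HH29 the shares were 46.6% and 23.9% in the forelimb and 49.1% and 25.3% in the hindlimb. The members' median log2 fold change was 0.57 and 0.51 in the forelimb and 0.63 and 0.48 in the hindlimb for the earlier and the later interval.

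**Figure D1:**
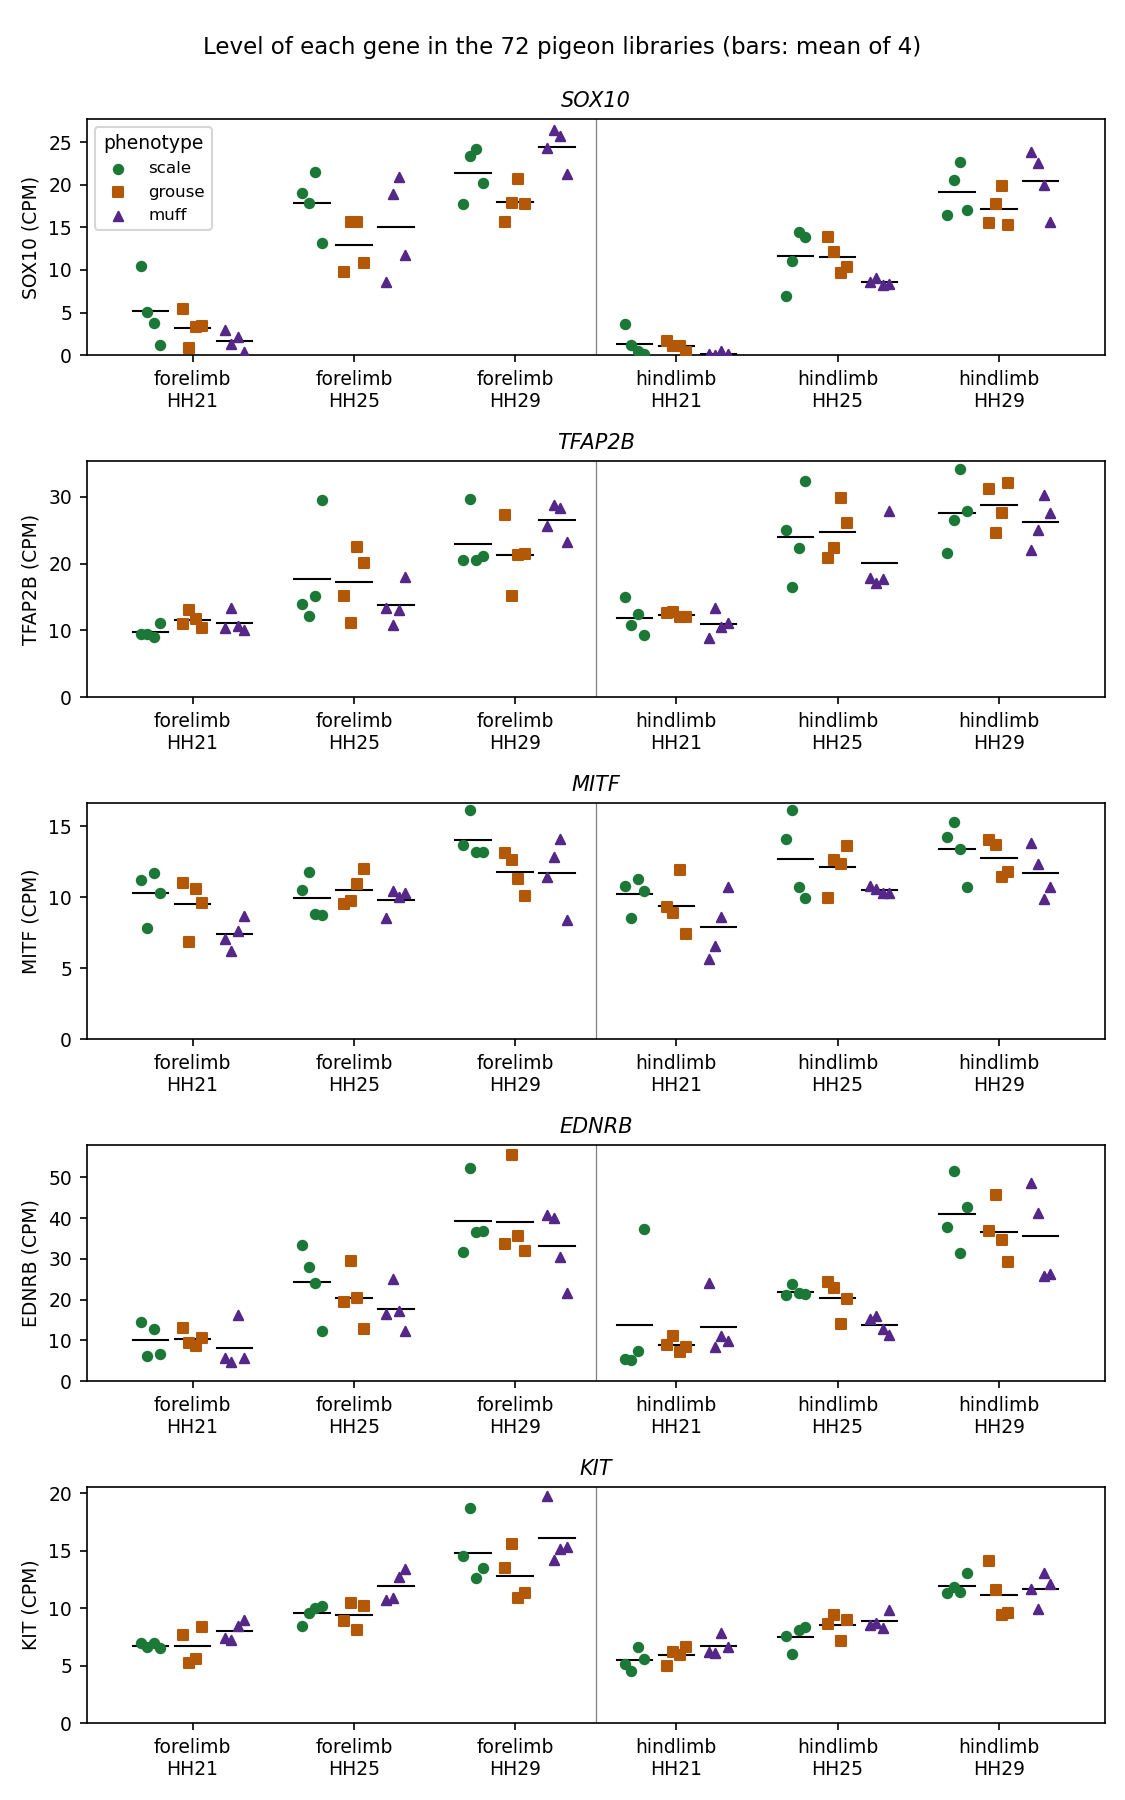
Level of each member (vertical axis, CPM) in the 72 libraries, by limb and stage along the horizontal axis. Each point is a library, with its phenotype as colour and shape, and each bar is the mean of 4. SOX10 hindlimb means run from 0.854 at HH21 to 18.9 at HH29 and those of MITF from 9.17 to 12.6.

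SOX10 showed the largest change of the members. In the forelimb the 12 libraries ranged from 0.393 to 10.5 CPM with a median of 3.09 at HH21, from 8.58 to 21.5 with a median of 15.6 at HH25, and from 15.6 to 26.4 with a median of 21 at HH29. In the hindlimb they ranged from 0 to 3.6 with a median of 0.491 at HH21, from 6.91 to 14.5 with a median of 9.99 at HH25, and from 15.3 to 23.8 with a median of 18.8 at HH29. The 3 stages did not overlap in the hindlimb, whereas neighbouring stages overlapped in the forelimb. The log2 fold change from HH21 to HH25 was 2.30 (SE 0.24, edgeR adjusted p = 9.6e-10) in the forelimb and 4.03 (SE 0.26, edgeR adjusted p = 1.9e-14) in the hindlimb. From HH25 to HH29 it was 0.85 (SE 0.19, edgeR adjusted p = 0.000279) in the hindlimb and 0.48 (SE 0.21, edgeR adjusted p = 0.0587) in the forelimb, which was not called. The early step was 1.99 in the forelimb and 4.23 in the hindlimb in replicates 1 and 2 alone, and 2.79 and 4.61 in replicates 3 and 4 alone.

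Each phenotype gave the early SOX10 rise on its own. In the hindlimb the log2 fold change from HH21 to HH25 was 3.09 (SE 0.40) in scale, 3.46 (SE 0.41) in grouse and 5.54 (SE 0.54) in muff embryos, and in the forelimb it was 1.78 (SE 0.39), 1.99 (SE 0.41) and 3.13 (SE 0.44). All 6 were called. Whether the phenotypes differed in this rise was not tested. The order of the 18 group means ran from 24.4 ± 2.28 CPM (SD, n = 4) in the muff forelimb at HH29 down to 0.175 ± 0.202 in the muff hindlimb at HH21, and every HH21 mean lay below every HH25 mean. Neighbours such as the scale forelimb at HH25 (17.9 ± 3.48) and the grouse forelimb at HH29 (17.9 ± 2.08) did not differ beyond their spread.

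The feature described as erbB-3, in mammals the receptor through which neuregulin acts on Schwann cell precursors, moved in the same direction. Its forelimb libraries ranged from 1 to 3.82 CPM at HH21, 6.23 to 14.1 at HH25 and 6.9 to 16.9 at HH29, and its hindlimb libraries from 0.693 to 3.58, 5.81 to 12.1 and 10.8 to 18.8. HH21 and HH25 did not overlap in either limb. The log2 fold change over that interval was 2.10 (SE 0.18, edgeR adjusted p = 6.71e-12) in the forelimb and 2.48 (SE 0.18, edgeR adjusted p = 1.32e-13) in the hindlimb. From HH25 to HH29 it was 0.49 (SE 0.15, edgeR adjusted p = 0.00918) and 0.75 (SE 0.15, edgeR adjusted p = 7.08e-05). Over the 18 group means of log2 CPM its Pearson correlation with SOX10 was 0.97, as a description of groups that share stage.

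EDNRB, a G protein-coupled receptor for endothelins, rose across both intervals when averaged over the phenotypes. Its forelimb mean was 9.49 ± 3.93 CPM (SD, n = 12) at HH21, 20.9 ± 7.09 at HH25 and 37.2 ± 9.23 at HH29, and its hindlimb mean 12 ± 9.32, 18.7 ± 4.57 and 37.7 ± 8.51. Hindlimb libraries at HH25, 11.4 to 24.4, did not overlap those at HH29, 25.8 to 51.5, while the other neighbouring stages overlapped. The log2 fold change was 1.11 (SE 0.20, edgeR adjusted p = 1.5e-05) and 0.84 (SE 0.19, edgeR adjusted p = 0.000397) in the forelimb, and 0.63 (SE 0.23, edgeR adjusted p = 0.0186) and 1.03 (SE 0.22, edgeR adjusted p = 0.000194) in the hindlimb. One library, scale hindlimb HH21 replicate 4, held 37.3 CPM against 5.23 to 7.36 in the other 3 of its group. Without it the early hindlimb value was 1.03 (edgeR adjusted p = 9.04e-07). With all libraries, the early hindlimb step was 0.66 (SE 0.39) in scale, 1.18 (SE 0.4) in grouse and 0.05 (SE 0.39) in muff embryos. Only that of grouse was called. The late hindlimb step was 0.89, 0.85 and 1.36 in the same order, and only that of muff was called. Whether the phenotypes differed in these steps was not tested.

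KIT, the receptor tyrosine kinase for KIT ligand, rose by a similar step in every interval. Its forelimb means were 7.17 ± 1.11, 10.3 ± 1.56 and 14.6 ± 2.64 CPM (SD, n = 12) and its hindlimb means 6.04 ± 0.898, 8.32 ± 1.01 and 11.6 ± 1.43. The log2 fold changes were 0.51 (SE 0.09, edgeR adjusted p = 9.66e-06) and 0.51 (SE 0.08, edgeR adjusted p = 9.17e-06) in the forelimb, and 0.46 (SE 0.09, edgeR adjusted p = 3.66e-05) and 0.48 (SE 0.08, edgeR adjusted p = 1.27e-05) in the hindlimb. Neighbouring stages overlapped in each limb.

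TFAP2B, a transcription factor of the AP-2 family, rose from 10.8 ± 1.34 CPM (SD, n = 12) through 16.2 ± 5.5 to 23.6 ± 4.36 in the forelimb and from 11.7 ± 1.7 through 23 ± 5.28 to 27.5 ± 3.85 in the hindlimb. The early hindlimb step was the largest, at a log2 fold change of 0.96 (SE 0.11, edgeR adjusted p = 2.74e-09), with HH21 libraries of 8.91 to 15 below HH25 libraries of 16.5 to 32.4. The late hindlimb step was 0.26 (SE 0.10, edgeR adjusted p = 0.0316) and lost its call, with adjusted p up to 0.0717, without any 1 of 7 libraries. These were scale HH25 replicate 2, grouse HH25 replicate 1, muff HH25 replicate 2, scale HH29 replicate 3, grouse HH29 replicates 1 and 4, and muff HH29 replicate 3. The forelimb steps were 0.57 (SE 0.13, edgeR adjusted p = 0.000368) and 0.55 (SE 0.13, edgeR adjusted p = 0.000585). In replicates 1 and 2 alone these were 0.21 (edgeR adjusted p = 0.345) and 0.94 (edgeR adjusted p = 0.000504), and in replicates 3 and 4 alone 0.89 (edgeR adjusted p = 7.87e-05) and 0.22 (edgeR adjusted p = 0.227) (whether these pairs of replicates differed in the size of the steps was not tested). At HH25 TFAP2B was higher in replicates 3 and 4 than in replicates 1 and 2, by 0.50 (edgeR adjusted p = 0.000601). The early forelimb step was 0.85 in scale, 0.56 in grouse and 0.31 in muff embryos, and only that of scale was called. The late forelimb step was 0.37, 0.31 and 0.96 in the same order, and only that of muff was called. Whether the phenotypes differed in these steps was not tested.

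MITF moved least. Its forelimb means were 9.05 ± 1.92, 10.1 ± 1.12 and 12.5 ± 1.98 CPM (SD, n = 12), and its hindlimb means 9.17 ± 1.94, 11.8 ± 1.98 and 12.6 ± 1.7, with overlap between all neighbouring stages. It was called from HH25 to HH29 in the forelimb, at 0.31 (SE 0.09, edgeR adjusted p = 0.006), and from HH21 to HH25 in the hindlimb, at 0.36 (SE 0.10, edgeR adjusted p = 0.00366). The other steps were 0.16 (edgeR adjusted p = 0.141) and 0.10 (edgeR adjusted p = 0.422). MITF counts came from 1 feature with 65.7% of them and a set of transcripts with 34.3%.

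**Figure D2:**
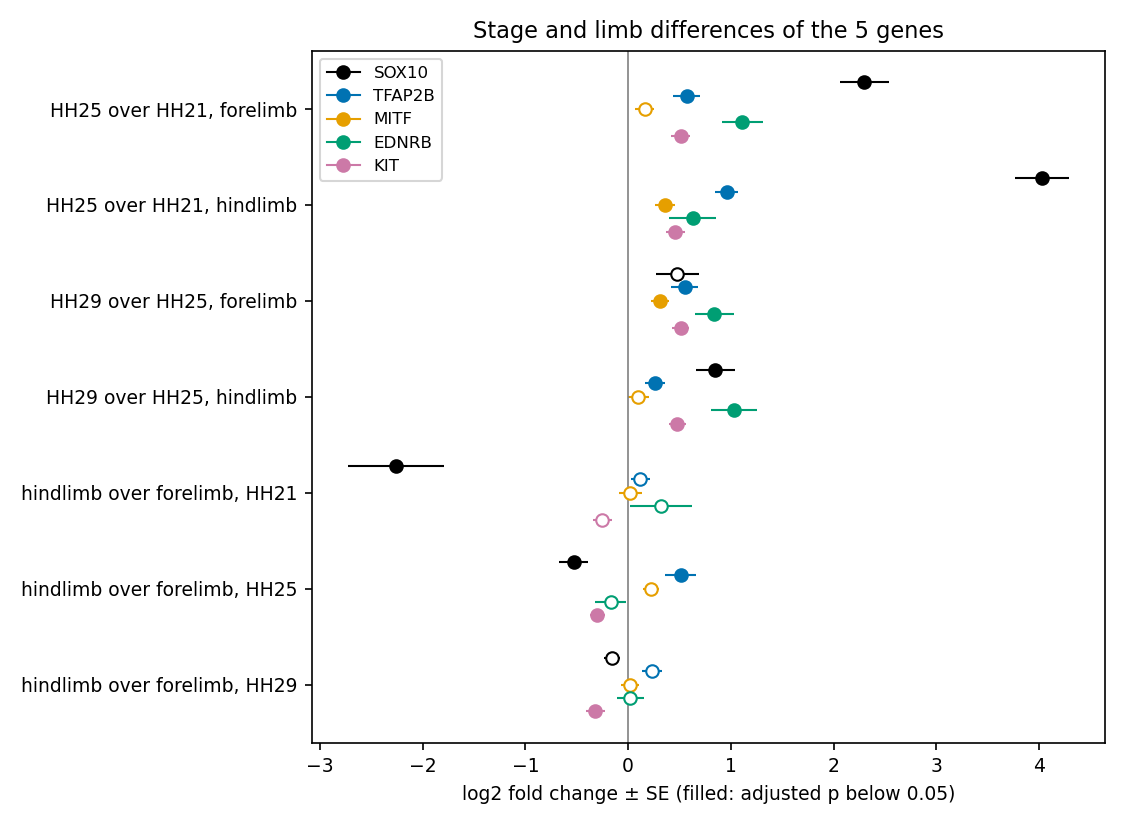
Log2 fold change ± SE of each member (filled symbols: adjusted p below 0.05) for the stage steps in each limb and for hindlimb over forelimb at each stage. SOX10 stands at 4.03 for the early hindlimb step and at -2.26 for hindlimb over forelimb at HH21, and the other members lie within a narrower range.

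SOX10 also differed between the limbs, most at the earliest stage. At HH21 the scale forelimb libraries held 10.5, 5.02, 3.77 and 1.25 CPM for replicates 1 to 4, and the scale hindlimb libraries 3.6, 1.14, 0.52 and 0.173. The grouse forelimb libraries held 5.42, 0.855, 3.27 and 3.37, and the grouse hindlimb libraries 1.66, 1.06, 1.05 and 0.328. The muff forelimb libraries held 2.91, 1.35, 2.09 and 0.393, and the muff hindlimb libraries 0.0788, 0, 0.462 and 0.158. The limbs overlapped across libraries, but the hindlimb library was the lower of its same-numbered pair in 11 of 12 pairs, the exception being grouse replicate 2. Averaged over phenotypes the hindlimb over forelimb log2 fold change was -2.26 (SE 0.47, edgeR adjusted p = 0.00273). In replicates 1 and 2 alone it was -2.81 (edgeR adjusted p = 0.0597), and in replicates 3 and 4 alone -2.37 (edgeR adjusted p = 0.0223). No phenotype was called on its own. The value was -1.92 (edgeR adjusted p = 0.323) in scale, -1.64 (edgeR adjusted p = 0.576) in grouse and -3.21 (edgeR adjusted p = 0.13) in muff embryos. The muff hindlimb values rest on counts of 1, 0, 6 and 2.

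**Figure D3:**
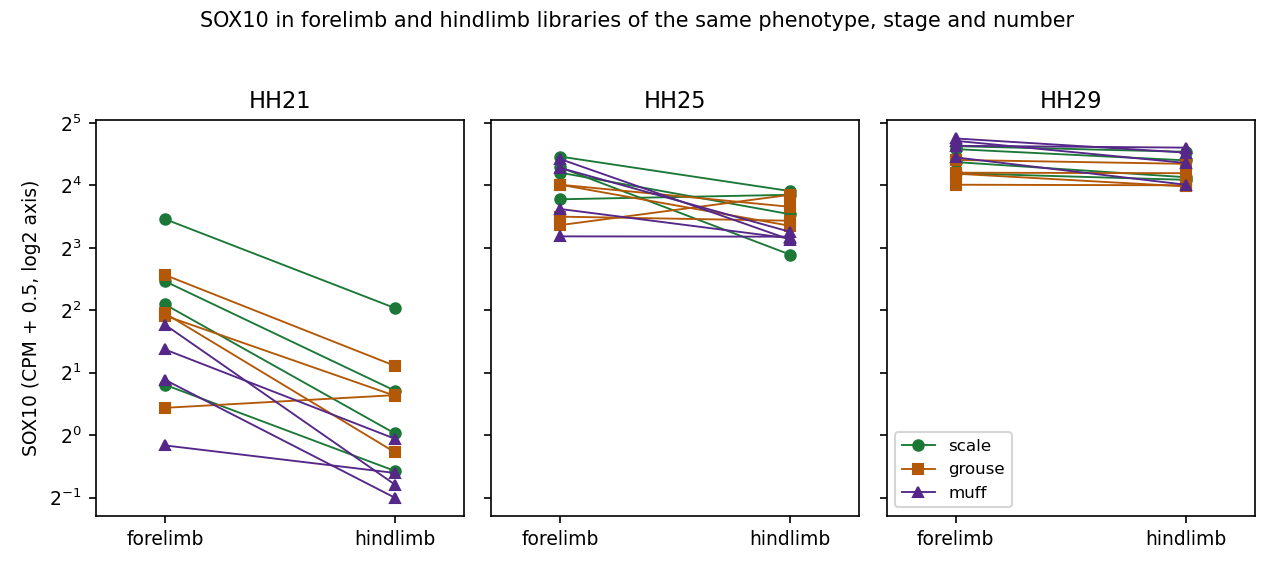
SOX10 (CPM + 0.5, log2 axis) in forelimb and hindlimb libraries at each stage, with a line joining the 2 libraries of one phenotype and number. The hindlimb end is lower in 11 of 12 pairs (HH21), 10 of 12 (HH25) and 12 of 12 (HH29), and the gap narrows with stage.

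The limb difference in SOX10 was smaller at later stages. At HH25 the hindlimb library was lower in 10 of 12 pairs, with a log2 fold change of -0.53 (SE 0.14, edgeR adjusted p = 0.0194). It was -0.55 in replicates 1 and 2 alone (edgeR adjusted p = 0.194) and -0.55 in replicates 3 and 4 alone (edgeR adjusted p = 0.112), neither called. Within scale, grouse and muff embryos it was -0.62, -0.17 and -0.81, none called. At HH29 the hindlimb library was lower in 12 of 12 pairs, with -0.16 (SE 0.08, edgeR adjusted p = 0.369), which was not called. With the same-numbered limb pair of a phenotype and stage as a block the HH29 value was -0.16 (edgeR adjusted p = 0.0227). The limb difference at HH29 minus that at HH21 was 2.10 (SE 0.39, edgeR adjusted p = 0.000114), and 5.43% of genes were called in that test. It was 2.71 in replicates 1 and 2 alone (edgeR adjusted p = 0.0156) and 2.15 in replicates 3 and 4 alone (edgeR adjusted p = 0.00979). Of the 5 members, SOX10 was the 1 called there. Genes of other lists were called in the same direction, among them CDH19 (3.55), SOX2 (1.56), PAX7 (0.83) and RXRG (0.82). So were the ligands ARTN (1.05) and NRTN (0.87), the myogenic genes CHRNA1 (1.69) and MYF5 (0.79) and the endothelial genes PECAM1 (0.47) and EMCN (0.46). PAX3 (-0.72) and the ligands NRG2 (-1.81) and KITLG (-0.43) were called the other way. Genes called in the direction of SOX10 did not share its pattern of levels in every case. CDH19 means were 0.421 CPM in the forelimb and 0.0408 in the hindlimb at HH21, and 3.64 and 3.79 at HH29. Those of SOX2 were 0.945 and 0.956 at HH21, and 1.29 and 3.86 at HH29. For the limb difference at HH29 minus that at HH21, the feature described as erbB-3 gave 0.66 (edgeR adjusted p = 0.00918) with the replicate block. That fit called 2435 of 12967 genes. With a batch term within each stage, added after seeing the data, the feature gave 0.67 (edgeR adjusted p = 0.0447). With another normalization it gave 0.64 (edgeR adjusted p = 0.14), and by DESeq2 0.64 (adjusted p = 0.0848), neither called. It was also not called without the filter on low counts (edgeR adjusted p = 0.156) or with features tested singly (edgeR adjusted p = 0.147). The same held with 1 term for replicates 1 and 2 against 3 and 4 (edgeR adjusted p = 0.139). Replicates 1 and 2 alone (edgeR adjusted p = 0.406) and 3 and 4 alone (edgeR adjusted p = 0.371) gave no call either.

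Of the 5 members, 3 were called between limbs at HH25 and 1 each at HH21 and HH29 without the replicate block. With the block, by which the limbs are paired, 4 were called at HH25, 1 at HH21 and 3 at HH29, where TFAP2B (0.23, edgeR adjusted p = 0.0447) joined SOX10 and KIT. In the fit without the block the shares of all genes called were 6.11% (HH21), 7.73% (HH25) and 8.15% (HH29). With the block more of all genes were called at each stage, so these shares are no background for its member counts. The numbers of genes it called and tested are given with the processing checks below. KIT was lower in the hindlimb, in 10, 12 and 11 of 12 pairs from HH21 to HH29. Its log2 fold change was -0.25 (SE 0.09, edgeR adjusted p = 0.148) at HH21, -0.30 (SE 0.07, edgeR adjusted p = 0.00915) at HH25 and -0.32 (SE 0.09, edgeR adjusted p = 0.0215) at HH29. At HH25 it was -0.27 in replicates 1 and 2 alone and -0.33 in replicates 3 and 4 alone, and at HH29 -0.44 and -0.19, none of them called. Within scale, grouse and muff embryos KIT gave -0.34, -0.14 and -0.42 at HH25 and -0.32, -0.19 and -0.46 at HH29, none called. TFAP2B went the other way at HH25, higher in the hindlimb in 12 of 12 pairs, at 0.51 (SE 0.15, edgeR adjusted p = 0.0419). That call was lost in 14 of 24 fits that each left out 1 library, with adjusted p from 0.00268 to 0.0825 over the 24. In the forelimb these left out scale replicates 1, 2 and 3, grouse 1 and 2, and muff 1, 2 and 3, and in the hindlimb scale 1, 3 and 4, grouse 3 and 4, and muff 4. In replicates 1 and 2 alone it was 0.64 (edgeR adjusted p = 0.0102) and in replicates 3 and 4 alone 0.41 (edgeR adjusted p = 0.271). Within scale, grouse and muff embryos TFAP2B gave 0.44, 0.53 and 0.55, none called. The TFAP2B call averaged over phenotypes was kept with the same-numbered limb pair as a block (0.52, edgeR adjusted p = 1.15e-06). MITF, higher in the hindlimb in 11 of 12 pairs at HH25, gave 0.22 (SE 0.08, edgeR adjusted p = 0.134), and 0.21 (edgeR adjusted p = 0.00322) with the block. EDNRB was not called at any stage, with 0.32 (edgeR adjusted p = 0.748), -0.17 (edgeR adjusted p = 0.702) and 0.02 (edgeR adjusted p = 0.972).

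Few member tests between foot phenotypes were called. Of 90 tests, 5 members in 18 comparisons, 1 was called. It was SOX10 in the forelimb at HH29, where muff libraries held 24.3, 26.4, 25.7 and 21.3 CPM and grouse libraries 15.6, 17.9, 20.7 and 17.7. The groups did not overlap, and the log2 fold change of muff over grouse was 0.46 (SE 0.14, edgeR adjusted p = 0.0421). The call was lost in 6 of 8 fits that each left out 1 library of these groups (0.39 to 0.54, edgeR adjusted p from 0.0333 to 0.113), and was kept only without grouse replicate 3 or without muff replicate 4. In that comparison 10.6% of genes were called, the highest share among the phenotype comparisons.

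In the other phenotype comparisons the share of genes called was lower. For grouse over scale it was 0.538%, 0.839% and 0.36% in the hindlimb at HH21, HH25 and HH29, and 0.204%, 0.743% and 0.469% in the forelimb. For muff over scale it was 2.93%, 2.87% and 1.28% in the hindlimb and 0.505%, 1.18% and 2% in the forelimb. For muff over grouse it was 1.59%, 1.77% and 3.77% in the hindlimb and 1.29% and 1.42% in the forelimb at HH21 and HH25. No member was called in these 17 comparisons in the fit without a replicate term. With the replicate number as a block, SOX10 was called lower in muff than in scale hindlimbs at HH21 (-2.69, edgeR adjusted p = 0.0457), as it was by DESeq2 (-2.96, adjusted p = 0.0222). EDNRB was called lower in the same comparison at HH25 (-0.69, edgeR adjusted p = 0.0227 with the block, and -0.68, edgeR adjusted p = 0.0294 with a term for replicates 1 and 2 against 3 and 4). The shares of genes above belong to the fit without a replicate term. They are no background for the SOX10 and EDNRB calls of these other fits. KIT in the forelimb at HH25 held 10.7, 10.9, 12.7 and 13.4 CPM in muff and 8.43, 9.6, 10 and 10.2 in scale libraries. These did not overlap but were not called (0.31, edgeR adjusted p = 0.248). Of the 90 member tests between phenotypes, 7 had groups that did not overlap. The share of all genes without overlap was not counted, so these separations have no background.

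More genes of the Schwann lineage list rose than fell with stage in both limbs. Of 17 listed, 14 were named in the table, and 7 of 11 tested rose in the forelimb from HH21 to HH25 and 7 of 10 in the hindlimb, with none lower. From HH25 to HH29, 6 of 11 rose and 1 fell in the forelimb, and 8 of 10 rose and 1 fell in the hindlimb. Among all genes, the background for each list here and below, 27.1% rose and 26.9% fell from HH21 to HH25 in the forelimb. In the hindlimb these shares were 27.4% and 26.9%. From HH25 to HH29, 23.9% rose and 22.6% fell in the forelimb, and 25.3% and 23.9% in the hindlimb. The Schwann list's median log2 fold change was 0.89 and 0.78 in the forelimb and 1.11 and 1.11 in the hindlimb. The gene that fell was PMP22, a myelin protein of Schwann cells also present in other tissues, which rose by 0.89 (SE 0.15) and then fell by 0.52 (SE 0.15) in the forelimb, and rose by 0.81 (SE 0.12) and fell by 0.30 (SE 0.11) in the hindlimb. FABP7, a fatty acid binding protein of Schwann cell precursors and other glia, rose by 3.29 (SE 0.19) and 1.65 (SE 0.16) in the forelimb and by 4.12 (SE 0.23) and 1.50 (SE 0.18) in the hindlimb. CDH19, a cadherin of Schwann cell precursors, rose by 1.98 (SE 0.27) and 1.20 (SE 0.20) in the forelimb and by 1.71 (SE 0.20) in the late hindlimb interval. In the hindlimb at HH21 CDH19 had 6 counts over 12 libraries, 9 of them at 0. S100B, a calcium-binding protein of glia, had 3 counts over the forelimb libraries and 1 over the hindlimb libraries at HH21.

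More genes of the melanocyte list rose than fell over the same intervals. Of 13 listed, 12 were named in the table. From HH21 to HH25, 8 of 11 tested rose in the forelimb with none lower, and 7 of 10 rose and 1 fell in the hindlimb. From HH25 to HH29, 7 of 11 rose in the forelimb with none lower, and 6 of 10 rose and 1 fell in the hindlimb. GPNMB, a melanosomal glycoprotein, had 11 counts over the 12 forelimb libraries and 2 over the 12 hindlimb libraries at HH21, and TYR, the first enzyme of melanin synthesis, 10 and 4. SLC24A5, a melanosomal ion exchanger, rose by 1.39 (SE 0.23) in the forelimb and 1.70 (SE 0.21) in the hindlimb from HH25 to HH29. TYRP1, a melanosomal enzyme, fell by 2.28 on the log2 scale (SE 0.42, edgeR adjusted p = 3.23e-05) in the hindlimb over that interval.

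**Figure D4:**
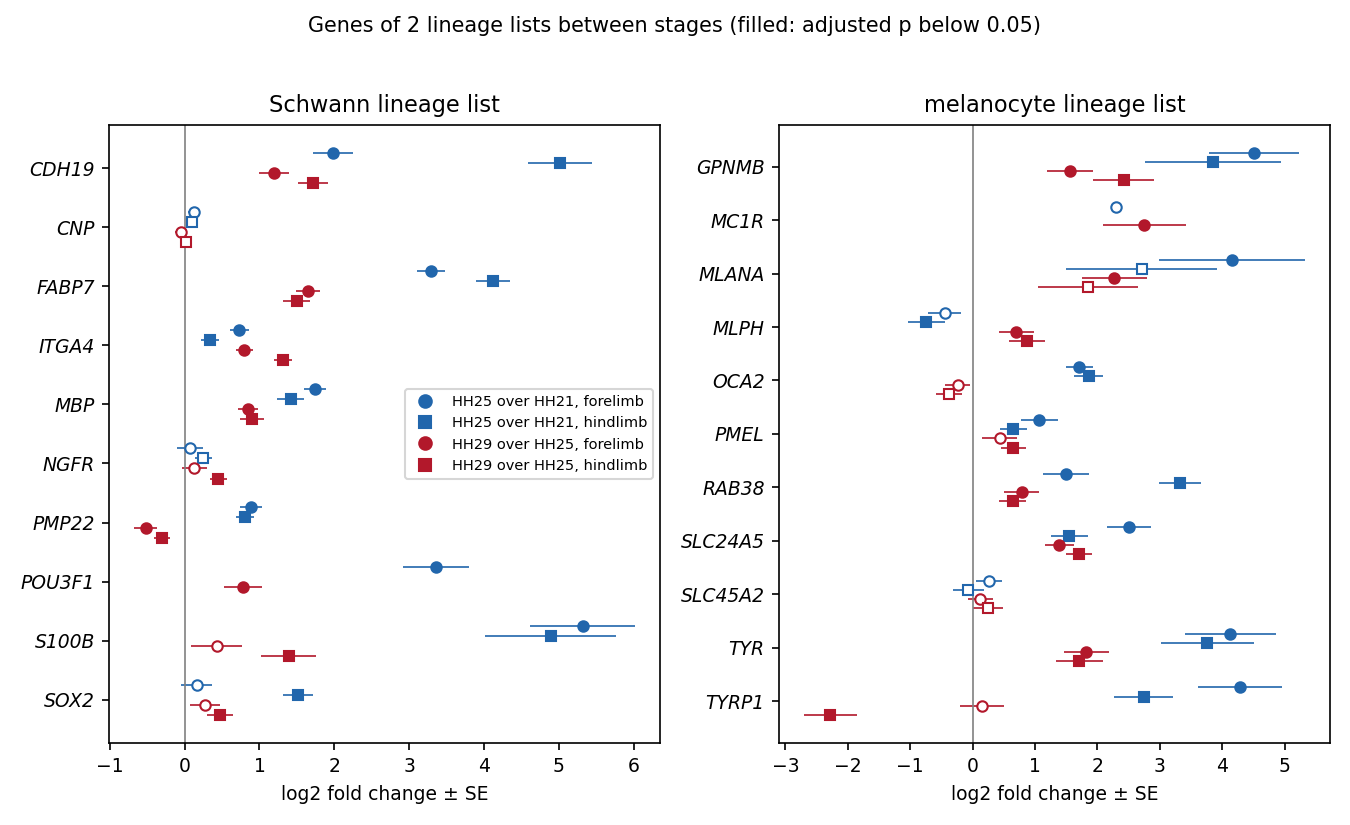
Log2 fold change ± SE of genes tested from the Schwann list (left) and the melanocyte list (right), with stage interval as colour, limb as shape and filled symbols for an adjusted p below 0.05. Most called symbols lie above 0, with PMP22, MLPH and TYRP1 below it, and values of genes near 0 at HH21, such as S100B, depend on the fit and are no measure of size.

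Other neural crest factors did not share one direction. Of 10 listed, 9 were tested: 6 rose and 2 fell in the forelimb from HH21 to HH25, and 6 rose and 1 fell in the hindlimb. From HH25 to HH29, 1 rose and 1 fell in the forelimb, and 3 rose and 2 fell in the hindlimb. SOX8, a factor of the same SoxE group as SOX10, rose by 0.75 (SE 0.15) and then fell by 0.74 (SE 0.15) in the forelimb, and rose by 0.79 (SE 0.11) and fell by 0.79 (SE 0.11) in the hindlimb. PAX3, also a factor of migrating muscle precursors, fell by 0.67 (SE 0.09) in the early forelimb interval and by 0.51 (SE 0.11) and 1.06 (SE 0.12) in the hindlimb. At HH21, 4 of the 9 were lower in the hindlimb: PAX7 (-0.99), RXRG (-0.51), PAX3 (-0.31) and SNAI2 (-0.29). Of all genes, 3.95% were called lower in that test.

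Ligands of these receptors and lineages rose more often than they fell. Of 13 listed, 11 were tested, and 7 rose and 2 fell, then 6 rose and 2 fell in the forelimb, against 6 and 2, then 5 and 2 in the hindlimb. NRG1, the neuregulin that acts through erbB-3, rose by 1.64 (SE 0.17) and 1.16 (SE 0.14) in the forelimb and by 1.60 (SE 0.21) and 1.13 (SE 0.17) in the hindlimb. GDNF, a neurotrophic factor, rose by 1.98 (SE 0.34) and 2.31 (SE 0.31) from HH21 to HH25 in the forelimb and hindlimb. ARTN, a related factor, fell by 1.48 (SE 0.14) in the forelimb over that interval and rose by 0.87 (SE 0.15) in the next.

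Several melanocyte genes differed between the phenotypes in the forelimb at HH29. There 6 of 10 tested genes were higher in muff than in grouse, with a list median of 2.29, and 3 were lower in grouse than in scale. GPNMB held 10.4, 5.88, 14.2 and 3.58 CPM in muff, 1.23, 1.1, 1.05 and 1 in grouse, and 5.46, 8.67, 9.31 and 6.08 in scale libraries. MLPH, a melanosome transport protein, held 6.34, 3.33, 6.6 and 3.35 in muff, 0.684, 0.345, 0.773 and 0.5 in grouse, and 3.53, 3.85, 4.1 and 2.6 in scale libraries. Every grouse library lay below every muff and scale library for both genes. The log2 fold change of muff over grouse was 3.09 (SE 0.38, edgeR adjusted p = 7.19e-05) for MLPH and 2.96 (SE 0.47, edgeR adjusted p = 0.000736) for GPNMB. For TYR it was 2.72 (SE 0.54, edgeR adjusted p = 0.00448). Grouse over scale was -2.74 (edgeR adjusted p = 0.00821) for GPNMB, -2.70 (edgeR adjusted p = 0.0221) for TYR and -2.59 (edgeR adjusted p = 0.00419) for MLPH. Both contrasts share the grouse libraries. Without grouse replicate 2, left out after seeing the data, 6 of 10 were again higher in muff than in grouse (list median 2.01) and 2 were lower in grouse than in scale, GPNMB (-2.74) and MLPH (-2.40), with TYR at -2.57 (edgeR adjusted p = 0.0652). In grouse over scale, with all libraries, 0.258% of all genes were called lower. In muff over grouse 10.6% of all genes were called, 5.29% as higher, and 7.5% in either direction without that library. Genes of other lists called there were SNAI2, PAX3, NRTN, ARTN and TIE1, all higher in muff, and FABP7, lower. In the hindlimb at HH29, 2 of 10 were higher in muff than in grouse, GPNMB (2.93, edgeR adjusted p = 0.00613) and MLPH (2.13, edgeR adjusted p = 0.0034). Of all genes, 2.28% were called higher in that test. MLPH was also lower in grouse than in scale hindlimbs at HH29 (-1.72, edgeR adjusted p = 0.0456), where 0.195% of all genes were called lower.

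**Figure D5:**
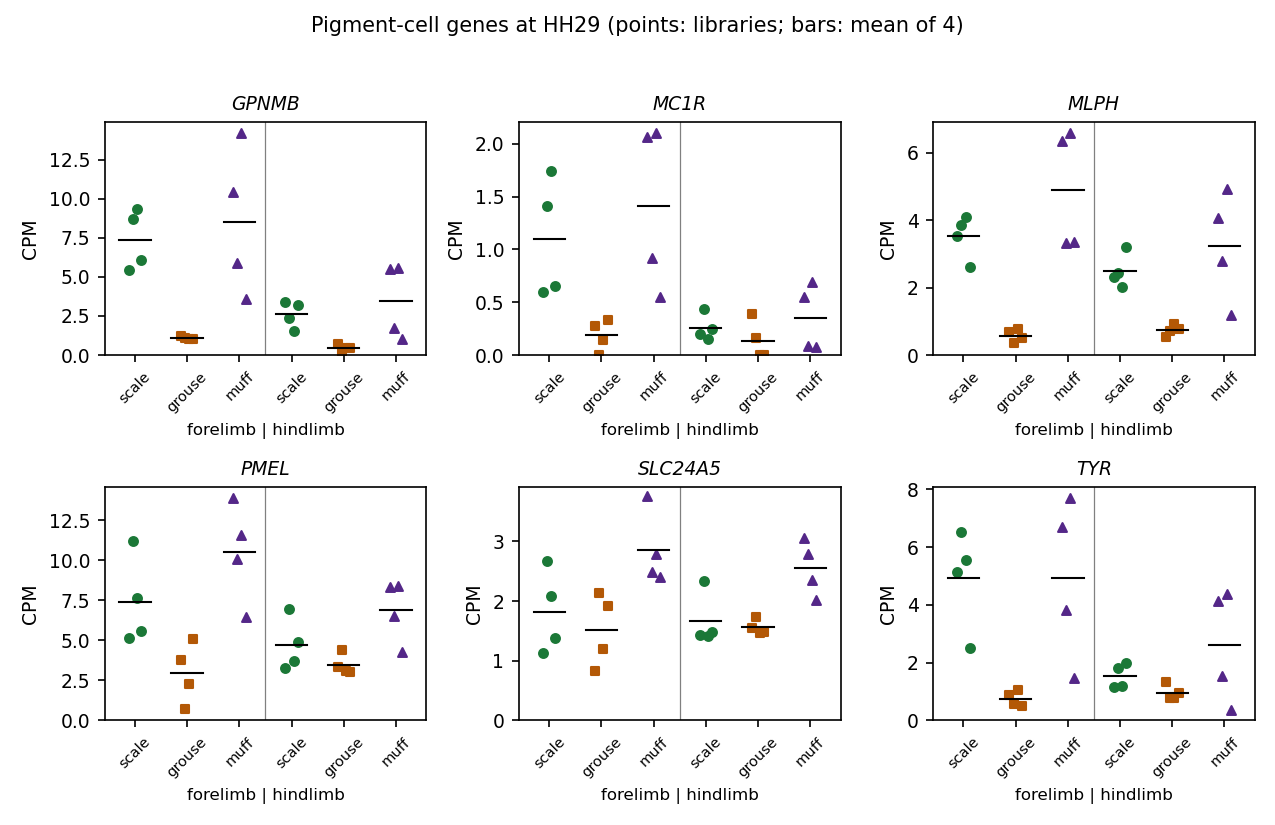
Level (vertical axis, CPM) of the 6 melanocyte genes called between muff and grouse forelimbs at HH29, by phenotype and limb, where each point is a library and each bar the mean of 4. In the forelimb the grouse libraries of GPNMB, between 1 and 1.23, lie below those of scale and muff.

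FABP7 was lower in muff embryos in several comparisons. In the forelimb at HH25 muff libraries held 18.7, 20.8, 25.6 and 28 CPM, grouse libraries 53, 51.9, 83.6 and 46.2, and scale libraries 83.4, 44.6, 64.5 and 95.8. Every muff library was below every grouse and scale library. Muff over scale was -1.64 (edgeR adjusted p = 0.00644) in the forelimb and -1.73 (edgeR adjusted p = 0.00333) in the hindlimb, and muff over grouse -1.33 (edgeR adjusted p = 0.0214) and -1.35 (edgeR adjusted p = 0.0179). Muff over grouse was also called in the hindlimb at HH21 (-2.27, edgeR adjusted p = 0.0439) and in the forelimb at HH29 (-0.86, edgeR adjusted p = 0.00186).

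Markers of other cells moved with stage as well. The summed level of 9 myogenic genes ranged from 111 to 177 CPM at HH21, 332 to 469 at HH25 and 420 to 519 at HH29 in the forelimb, and from 90.1 to 185, 271 to 416 and 384 to 492 in the hindlimb. The sum of 11 neuronal genes ranged from 13.1 to 21.8, 20.7 to 32.1 and 28 to 54.6 in the forelimb and from 17.3 to 25.6, 26 to 34 and 31.2 to 62.5 in the hindlimb, with 1 or 2 of the 11 at 0 in all libraries of a limb and stage. The sum of 10 endothelial genes had medians of 221, 249 and 301 in the forelimb and 218, 269 and 368 in the hindlimb. Medians of 8 blood genes lay between 73.1 and 86.7, and those of 5 ectodermal genes fell from 188 to 153 in the forelimb and from 178 to 134 in the hindlimb. CHRNA1, a muscle acetylcholine receptor subunit, was lower in the hindlimb at HH21 like SOX10, at -1.76 (edgeR adjusted p = 0.0156). The part of these markers in the members' values was not tested.

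The members followed each other over the 18 group means of log2 CPM, groups that share stage. Pearson correlations with SOX10 were 0.81 for TFAP2B, 0.78 for MITF, 0.85 for EDNRB and 0.84 for KIT, and the lowest between any pair was 0.58, for MITF and KIT. Among 10742 named genes the 3 most like SOX10 were GALNT5 (0.99), ZFP36L1 (0.984) and CHRNA1 (0.983). For TFAP2B they were COL12A1 (0.975), TBX22 (0.971) and TAGLN3 (0.968), and for MITF RAB29 (0.936), BORCS5 (0.931) and ATP6AP1 (0.92). For EDNRB they were BTG1 (0.979), TMEM263 (0.978) and DAP (0.978), and for KIT HTRA1 (0.957), BTBD11 (0.956) and APCDD1L (0.956).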

How the data were processed

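RNA was measured in limb buds by stranded poly(A) RNA-seq, per the labels' protocols. The deposited files hold the authors' whole-number counts per feature. The submitters' processing notes name FastQC, STAR, featureCounts and DESeq2 without versions. The sources used here do not give the genome build or strand setting. Names came from the authors' deposited table, and 500 of 21379 features carry none. Members and lists were chosen with earlier results of these data known. The 24 chicken libraries are not analysed here.

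Counts were summed per name. edgeR 4.0.16 in R 4.3.3 was used with TMM, filterByExpr by group and the quasi-likelihood test, and p-values were adjusted over all genes tested. Stage fits used the 36 libraries of a limb and averaged over phenotypes, limb and phenotype fits the 24 of a stage, and the difference between limb effects all 72. Genes of the lists were tested between limbs only without the replicate block, which leaves the pairing of limbs out. The scripts were tested on simulated data. From each list, up to 4 called genes with the largest change were eligible to be named; others named here were chosen after their values were seen. Likeness is the Pearson correlation over 18 group means of log2(CPM + 0.5). Same-numbered limb libraries of one phenotype and stage deviated together: the correlation of their deviations exceeded 0.1 in all 36 pairs. Its median was 0.64 (HH21), 0.8 (HH25) and 0.73 (HH29), and the numbers were taken to pair the limbs. At HH21 and HH25 the cut of 0.1 alone cannot tell pairing from the difference of replicates 1 and 2 from 3 and 4. Alternatives were DESeq2 1.42.0, other filters and normalizations, a replicate block, a batch term, replicates 1 and 2 or 3 and 4 alone and leaving out each library. Between limbs, and for the difference between limb effects, the block was the same-numbered limb pair of a phenotype and stage. Between stages or phenotypes it was the replicate number over all groups of the fit. One gene of the Schwann list is counted with its list and is otherwise not reported here.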

Additional observations from a re-analysis of the deposited data

Results flagged for a closer look

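Among 124 sets of 4 libraries, 9 held a library farther from the others than Dixon's critical value for a set of this size allows, and chance flags about 1 in 20 sets. EDNRB held 37.3 CPM in scale hindlimb HH21 replicate 4, with the nearest library at 7.36. It held 16.3 in muff forelimb HH21 replicate 3, with the nearest at 5.59, and 55.4 in grouse forelimb HH29 replicate 2, with the nearest at 35.6. TFAP2B held 13.3 in muff forelimb HH21 replicate 2 against a nearest value of 10.7, 27.8 in muff hindlimb HH25 replicate 4 against 17.9, and 29.7 in scale forelimb HH29 replicate 2 against 21.2. MITF held 16.1 in the same scale forelimb HH29 replicate 2, with the nearest at 13.7. The feature described as endothelin B receptor, which is outside the rule, held 1.58 in scale hindlimb HH21 replicate 1 against 0.0866, and 2.29 in grouse forelimb HH21 replicate 1 against 0.559.

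The hindlimb over forelimb difference of SOX10 differed between stages, by 2.1 on the log2 scale at HH29 against HH21 in the test of the difference itself.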

How the results depend on the processing

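No called member value changed direction under any alternative run. Apart from leaving out libraries, 192 member values kept their call and 19 lost it, 7 of these in replicates 1 and 2 alone and 10 in replicates 3 and 4 alone. With replicates 3 and 4 alone, members called numbered 2 for HH29 over HH25 in the forelimb, 3 for HH25 over HH21 in the hindlimb, and 0 between limbs at HH25. With replicates 1 and 2 alone they numbered 0 between limbs at HH21, 1 at HH25 and 0 at HH29. These member counts are given without the share of all genes called in the same fits. Fewer libraries also lowered calls over all genes where this was compared, in the limb difference at HH29 minus that at HH21. There 242 of 12997 genes were called in replicates 1 and 2 alone and 384 of 12976 in replicates 3 and 4 alone. With all libraries 704 of 12967 were called. Replicates 1 and 2 alone, replicates 3 and 4 alone, and a fit of the 2 groups alone, gave 0 for muff over grouse in the forelimb at HH29 (SOX10 0.46, edgeR adjusted p = 0.11 in their own fit), and leaving out 1 library gave 0 to 1. The replicate block, by which limbs are paired, gave 3 between limbs at HH29: SOX10, TFAP2B (0.23, edgeR adjusted p = 0.0447) and KIT (-0.32, edgeR adjusted p = 0.00372). It called 2023 of 12273, 3505 of 12511 and 2185 of 12790 genes tested between limbs at HH21, HH25 and HH29. Same-numbered libraries of different phenotypes correlated above 0.1 in 19 (HH21), 22 (HH25) and 9 (HH29) of 24 pairs (median 0.19, 0.39 and 0.07, against -0.12, -0.30 and -0.04 for different numbers), and those of different stages in 14 of 72. Not every pair passed, so these numbers were not taken as pairing, although they carry shared variation at HH21 and HH25. Between phenotypes a block by replicate number alone gave 1 for muff over scale in the hindlimb at HH21 (SOX10 -2.69, edgeR adjusted p = 0.0457). DESeq2 also gave 1 (-2.96, adjusted p = 0.0222). At HH25 the block and a batch term each gave 1 (EDNRB -0.69, edgeR adjusted p = 0.0227, and -0.68, edgeR adjusted p = 0.0294). These phenotype calls are given without the share of all genes called in the same fits. SOX10 from HH25 to HH29 in the forelimb was called with a block by replicate number alone (0.50, edgeR adjusted p = 0.0453). It was also called with a batch term added after seeing the data (0.48, edgeR adjusted p = 0.042). Leaving out 1 library gave 4 to 5 members for that forelimb step, 3 to 4 for the hindlimb step and 2 to 3 between limbs at HH25. MITF from HH21 to HH25 in the hindlimb lost its call when features were tested singly and its largest one, with 65.7% of its counts, was read (0.21, edgeR adjusted p = 0.12). The cause was not tested. Counts of single reads limit SOX10 and CDH19 in the hindlimb at HH21.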

Other observations

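A feature described as endothelin B receptor is separate from the one named EDNRB and split the muff libraries by replicate. At HH21 muff forelimb replicates 1 to 4 held 1.3, 65.7, 0.862 and 55.6 CPM, and muff hindlimb replicates 0, 63.7, 0 and 63.4. At HH25 the forelimb libraries held 148, 71.1, 34.5 and 34.7 and the hindlimb libraries 144, 65.3, 8.09 and 7.54. Replicates with a high value in one limb were high in the other at both stages. At HH29 the muff libraries held 69.7, 32.4, 70 and 92.6 in the forelimb and 23.2, 12.6, 28.1 and 78.7 in the hindlimb. The grouse forelimb libraries held 4.51, 2.28, 4.01 and 4.67 at HH29. Muff over grouse at HH29 was 4.11 (SE 0.47, edgeR adjusted p = 3.25e-05) in the forelimb and 3.87 (SE 0.49, edgeR adjusted p = 0.000226) in the hindlimb, and grouse over scale was -2.76 (SE 0.46, edgeR adjusted p = 0.00704) in the forelimb.

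GPNMB split the muff forelimb libraries at HH25 the opposite way, with 0.252 and 0.256 CPM in replicates 1 and 2 and 5.35 and 7.52 in replicates 3 and 4. Other melanocyte genes were also higher there in replicates 3 and 4, such as MLPH (0.505, 0.512, 3.79 and 4.32) and PMEL (1.93, 2.47, 10.5 and 14.9). Not all were, as in TYRP1 (0.841, 0.341, 0.247 and 0.48). Some genes of the Schwann and melanocyte lists were called between limbs, and they went both ways. These tests are from the fit without the replicate block. In it 6.11% (HH21), 7.73% (HH25) and 8.15% (HH29) of all genes were called. SOX2, a factor of progenitors and Schwann cell precursors, was higher in the hindlimb at HH25 (1.38, edgeR adjusted p = 5.82e-05) and HH29 (1.58, edgeR adjusted p = 2.53e-08), and ITGA4, an integrin subunit, was lower at HH25 (-0.58, edgeR adjusted p = 0.00081). In that fit no other Schwann gene of 10 tested at HH25 and 11 at HH29 was called, and the list medians were -0.09 and -0.03. OCA2, a melanosomal transporter, was higher in the hindlimb at HH21 (1.40), HH25 (1.54) and HH29 (1.41). At HH29 RAB38 was also higher (0.73, edgeR adjusted p = 0.0144) and GPNMB lower (-1.36, edgeR adjusted p = 0.00265), with a list median of -0.29 over 10 genes. Most of the melanocyte genes not called had lower values in the hindlimb at that stage, such as TYR (-0.75, edgeR adjusted p = 0.186) and MLANA (-1.30, edgeR adjusted p = 0.409). NRG3, a neuregulin, was also higher there at the 3 stages (0.71, 0.56 and 0.33).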
